A study of Homo sapiens with 6 samples.

Results

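Antigen processing and presentation genes encode the proteins that show peptides, or stress signals, at the cell surface to immune cells. They were examined here in SW480 cells, an established line from a human colorectal adenocarcinoma. A list of 39 symbols was matched to the Ensembl identifiers of 6 count tables, and all 39 were found among the 63677 identifiers. Of these, 36 held enough reads to be tested, among 14286 tested genes. The list covers class I molecules, peptide generation, peptide loading, regulators, the class II pathway, ligands of the receptor NKG2D and inhibitory ligands. It is a named selection and does not hold every gene of these pathways. On GRCh37 (hg19), 21 members lie on chromosome 6, and 18 of them sit in the major histocompatibility complex between HLA-F, which starts at 29690552, and TAPBP, which ends at 33282061.

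To ask which transcripts differ when POU5F1B is overexpressed, the study sequenced polyadenylated RNA from cells carrying a doxycycline-inducible vector for either GFP, the control, or POU5F1B, a retrogene copy of the pluripotency factor gene POU5F1. Each group had 3 libraries, and cells of both groups received 1 µg/mL doxycycline for 72 h. Per the study's methods the vectors were delivered by lentivirus with puromycin selection, so each group is a transduced population and not the endogenous locus. No label says that the 3 libraries of a group came from separate cultures, so the p-values measure the spread between libraries, which may be technical. In bulk RNA, fewer cells expressing a gene and less RNA per cell cannot be told apart.

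In nearly every cell type, class I molecules carry peptides cut from cytosolic proteins. The proteasome cuts the proteins, the TAP transporter brings the peptides into the endoplasmic reticulum, aminopeptidases trim them, and a loading complex of chaperones fits them onto a heavy chain paired with beta-2 microglobulin. Class II molecules carry peptides from endosomes and are made mainly by professional antigen-presenting cells, although epithelial cells can make them when the transactivator CIITA is on. Interferon gamma is the classical inducer of both sets, acting through IRF1, NLRC5 and CIITA among others.

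The libraries held 10767947 to 12787637 counts. POU5F1B had 6, 5 and 1 counts in GFP replicates 1, 2 and 3 and 15027, 11393 and 1458 in POU5F1B replicates 1, 2 and 3, so its level in POU5F1B replicate 3 was 9.22-fold below the mean of the other two. GFP replicate 3 stood apart, with a coefficient of variation of 44.3% and 40.9% to GFP replicates 1 and 2, which differed from each other by 8.03%. POU5F1B replicate 3 was 21.1% and 24.1% from replicates 1 and 2, which were 9.84% apart. Tested members and comparison genes are therefore given for all 6 libraries and for replicates 1 and 2 alone. Where the replicate 3 libraries are set against each other, it is because both stand apart, and not because the numbers pair the samples. Of 8 colorectal epithelial markers, 7 passed the filter, with a summed level of 6365 to 9579 CPM (counts scaled to a common library size by TMM) in GFP and 7908 to 8929 CPM in POU5F1B libraries. That sum is mostly KRT8 and KRT18. CDH1 was at 33.7, 30.2 and 72.7 CPM in GFP and 164, 159 and 98.3 CPM in POU5F1B replicates 1, 2 and 3, with groups that did not overlap, and EPCAM was at 86.8, 89.4 and 519 against 320.3, 331 and 252 CPM. CDX2 was at 27.7, 19.5 and 33.2 CPM in GFP and at 16.4 and 14.6 CPM in POU5F1B replicates 1 and 2, with POU5F1B replicate 3 the highest library, and CDX1 had 0 to 2 counts. Of 9 markers of leukocytes and professional antigen-presenting cells, CD68 and MS4A1 were at 0 in every library, PTPRC had counts only in GFP replicate 3, with 2, ITGAX had 20, 19 and 2 counts in GFP and 9, 13 and 18 in POU5F1B libraries, CD14 had 0 to 16 counts, and the list summed to 0.783 to 4.13 CPM in GFP and 1.48 to 2.66 CPM in POU5F1B libraries. The fibroblast list summed to 170, 148 and 24.7 CPM in GFP and 15.7, 13.3 and 22.1 CPM in POU5F1B replicates 1, 2 and 3, nearly all from COL1A1 and PDGFRB, with COL3A1 at 0 throughout and THY1 at 0 to 9 counts. Endothelial markers summed to 1.22 to 5.98 CPM in GFP and 2.58 to 6.53 CPM in POU5F1B libraries. The part of these marker levels in the values that follow was not tested.

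Sequence just before the start of transcription is shown for 6 members whose values are described in detail, because the regulators in the list act there. Each is the 250 bases before a RefSeq transcript start (GRCh38.p14), and 34 of the 39 members matched, with 49 such windows. CIITA, HLA-DRA, HLA-E, NLRC5 and PDIA3 are named only. Capitals mark a match, on either strand, to GAAANNGAA (like the interferon-stimulated response element bound by IRF factors), to CCAAT (the Y box bound by NF-Y) or to GCAACNGAT (like the X box bound by the RFX complex), and each sequence reads 5′ to 3′ along the gene. A match is a description of letters and not a bound site.
HLA-F, chr6:29723184-29723433, plus strand: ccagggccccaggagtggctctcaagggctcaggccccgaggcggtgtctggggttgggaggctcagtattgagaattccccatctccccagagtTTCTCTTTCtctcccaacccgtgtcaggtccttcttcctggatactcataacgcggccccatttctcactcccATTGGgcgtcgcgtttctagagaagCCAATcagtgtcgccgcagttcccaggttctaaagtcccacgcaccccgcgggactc
HLA-B, chr6:31357180-31357429, minus strand: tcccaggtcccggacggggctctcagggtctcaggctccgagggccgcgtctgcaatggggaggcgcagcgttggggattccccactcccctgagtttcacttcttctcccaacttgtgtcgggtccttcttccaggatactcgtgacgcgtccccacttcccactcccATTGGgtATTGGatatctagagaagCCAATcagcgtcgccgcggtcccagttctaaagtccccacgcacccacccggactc
TAP1, chr6:32853705-32853954, minus strand: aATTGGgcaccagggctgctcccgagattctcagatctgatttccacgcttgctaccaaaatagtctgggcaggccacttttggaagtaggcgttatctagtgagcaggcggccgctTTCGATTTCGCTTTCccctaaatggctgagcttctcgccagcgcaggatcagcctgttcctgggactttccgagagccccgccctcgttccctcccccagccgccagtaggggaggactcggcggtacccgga
PSME2, chr14:24146611-24146860, minus strand: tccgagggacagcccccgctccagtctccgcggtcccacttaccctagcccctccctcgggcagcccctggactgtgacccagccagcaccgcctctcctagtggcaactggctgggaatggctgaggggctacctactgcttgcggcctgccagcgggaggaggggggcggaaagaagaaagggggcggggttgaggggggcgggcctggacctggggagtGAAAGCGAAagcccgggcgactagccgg
HLA-DRB1, chr6:32589849-32590098, minus strand: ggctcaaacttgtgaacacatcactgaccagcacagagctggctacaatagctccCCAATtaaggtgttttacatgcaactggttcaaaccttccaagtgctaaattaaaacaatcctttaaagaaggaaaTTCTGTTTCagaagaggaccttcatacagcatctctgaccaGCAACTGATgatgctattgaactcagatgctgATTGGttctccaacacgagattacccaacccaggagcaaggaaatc
CD74, chr5:150412911-150413160, minus strand: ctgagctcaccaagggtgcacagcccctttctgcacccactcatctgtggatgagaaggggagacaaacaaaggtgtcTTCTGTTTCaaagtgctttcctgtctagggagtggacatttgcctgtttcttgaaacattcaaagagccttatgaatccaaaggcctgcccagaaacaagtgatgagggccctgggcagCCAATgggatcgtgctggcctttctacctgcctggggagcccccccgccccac

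The GAAANNGAA letters stood in 14 of the 49 member windows, in 14 members, against 6.88% of 35116 RefSeq windows of the same length. In HLA-F the match spans bases -155 to -147 from the start, in PSME2 -28 to -20, and in TAP1 a pair of matches overlap from -133 to -119. CCAAT was found in 21 member windows, of 19 members, against 32.0% of all windows. It occurs 3 times in the HLA-B window, and neither of the other letter patterns does. The X box letters stood in the HLA-DRB1 window alone among the members, at -78 to -70, against 0.362% of all windows, with a CCAAT match at -46 to -42 nearer the start.

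No member passed the threshold of an adjusted p under 0.05 with a fold change above 2 in all 6 libraries (0 of 36, limma voom). The same held for all tested genes, at 0%, and the quasi-likelihood test of edgeR also called 0 genes, while DESeq2 called 232 genes and 0 members. The overexpressed POU5F1B itself was not called in limma voom, with a log2 fold change of 10.7 ± 2.78 and an adjusted p of 0.252. The lowest adjusted p among members in limma voom was 0.199, for CANX, and the highest was 0.989. At an unadjusted p under 0.05, 7 members were higher with POU5F1B, namely HLA-E, HLA-F, PSME1, PSME2, TAP1, TAP2 and NLRC5, against 6.07% of all genes, and 1 was lower, CANX, against 5.82%. Log2 fold changes of POU5F1B over GFP were above 0 for 27 members and below 0 for 9, with a median of 0.23, and the median over all tested genes was -0.02. Of all tested genes, 6706 were above 0 and 7580 below. The GFP and POU5F1B libraries did not overlap in 6 members that were higher, HLA-F, PSME1, PSME2, TAP1, TAP2 and NLRC5, where 10.2% of all genes were so. They did not overlap in 5 that were lower, CALR, CANX, PDIA3, RFXANK and CD47, where 9.24% of all genes were so.

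In replicates 1 and 2 alone, 6 members passed the threshold, all higher: HLA-F, CIITA, HLA-DRA, HLA-DRB1, HLA-DPA1 and CD274. The background there was 3.21% of genes higher and 5.15% lower. Counting adjusted p alone in that limma voom fit, 17 members were higher, against 14.1% of all genes, and 3 were lower (CALR, CANX and CD47), against 15.5%. The median log2 fold change of the members was 0.30 in replicates 1 and 2, where the median of all genes was -0.0050. Between the replicate 3 libraries the median difference of the members was 0.04, with 18 of 36 higher. Over all genes that median was 0.0072, with 7216 of 14286 higher.

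**Figure D1:**
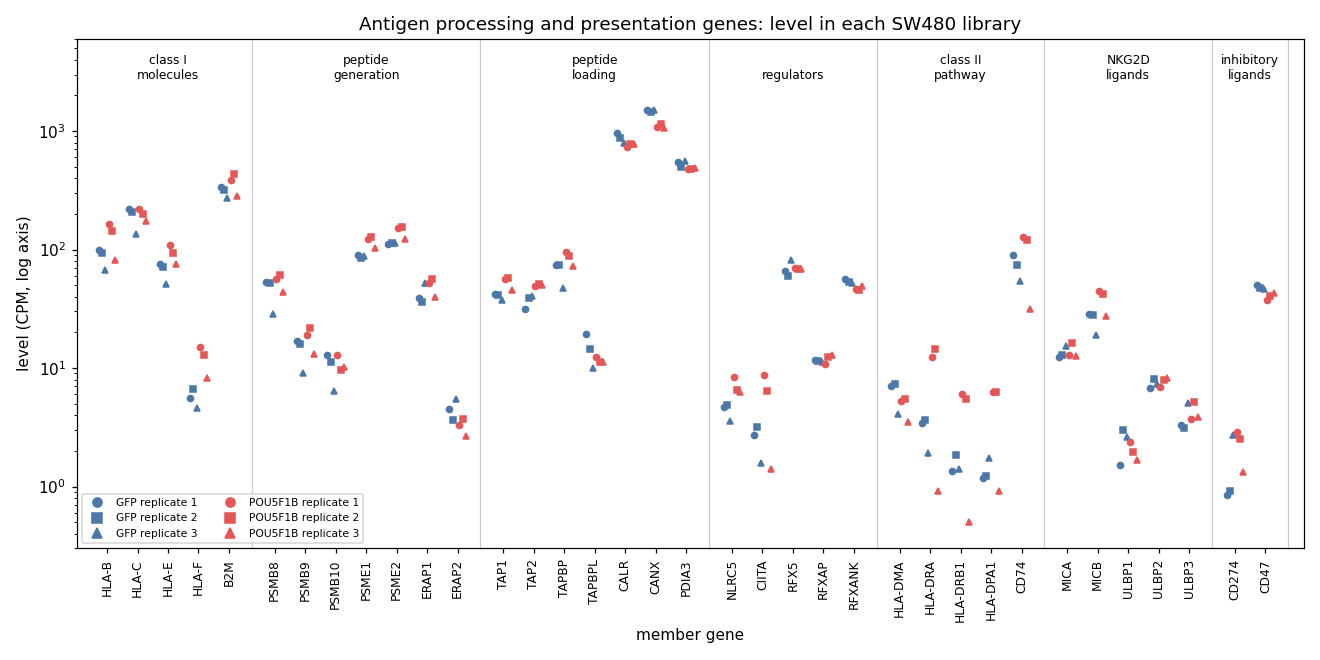
Level of each of the 36 tested members in every library (CPM, log axis), grouped by role, with GFP in blue and POU5F1B in red and the marker shape giving the replicate number. CANX lay highest, between 1067 and 1512 CPM, and HLA-DRB1 in POU5F1B replicate 3 lay lowest, at 0.500 CPM.

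Levels between genes were compared per kilobase of the canonical transcript, as the mean of all 6 libraries. The chaperone CALR stood highest at 433 CPM per kb and CIITA lowest of the tested members at 0.250 CPM per kb. The place of CIITA rests on a canonical transcript of 16061 bases. Its mean CPM, 2.49 in GFP and 5.54 in POU5F1B, was above that of HLA-DRB1, at 1.52 and 4.01. B2M followed CALR at 360.4 CPM per kb, and the heavy chains HLA-C, HLA-B, HLA-E and HLA-F stood at 124, 70.5, 31.2 and 5.97 CPM per kb. The class II chains were lower on this scale, with HLA-DRA at 4.95, HLA-DRB1 at 2.26 and HLA-DPA1 at 1.73 CPM per kb, while CD74, the invariant chain that class II molecules bind on their way to endosomes, stood at 50.4 CPM per kb. The regulators NLRC5 and CIITA were at 0.844 and 0.250 CPM per kb, and their DNA-binding partner RFX5 was at 19.3 CPM per kb.

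Over the 5 tested class I molecules the median log2 fold change was 0.48, all of them were above 0, and none passed the threshold. HLA-F encodes a non-classical class I molecule that is also a ligand of natural killer cell receptors. It was at 5.56, 6.70 and 4.61 CPM in GFP replicates 1, 2 and 3 and at 15.0, 13.0 and 8.16 CPM in POU5F1B replicates 1, 2 and 3, so that every POU5F1B library lay above every GFP library. The difference was 1.06 ± 0.30 on the log2 scale (SE, n = 3 per group), a 2.08-fold higher level with an adjusted p of 0.290 in limma voom. In replicates 1 and 2 alone it was 1.18 ± 0.20, with an adjusted p of 0.000977, and between the replicate 3 libraries 0.82.

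HLA-B, a classical heavy chain that presents peptides to CD8 T cells, was at 98.3, 94.2 and 66.6 CPM in GFP and 165, 144 and 82.1 CPM in POU5F1B replicates 1, 2 and 3. POU5F1B replicates 1 and 2 lay above the GFP range and replicate 3 fell inside it. The log2 fold change was 0.55 ± 0.29 with an adjusted p of 0.508 in limma voom, and 0.67 ± 0.10 with an adjusted p of 0.000265 in replicates 1 and 2. HLA-E, which displays leader peptides of other class I molecules to the receptor NKG2A, was at 76.0, 71.3 and 51.5 CPM in GFP and 109, 93.6 and 75.4 CPM in POU5F1B libraries. The groups overlapped only in the lowest POU5F1B library, and the log2 fold change was 0.48 ± 0.20 with an adjusted p of 0.420 in limma voom. Without the replicate 3 libraries it was 0.45 ± 0.10, with an adjusted p of 0.00636.

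HLA-C, the other classical heavy chain listed, did not follow HLA-B. It was at 218, 208 and 134 CPM in GFP and 220.1, 198 and 173 CPM in POU5F1B replicates 1, 2 and 3, and the groups overlapped except that GFP replicate 3 lay below every POU5F1B library. Its log2 fold change was 0.10 ± 0.21 (adjusted p = 0.880, limma voom), and -0.04 ± 0.08 (adjusted p = 0.761) in replicates 1 and 2. The difference between HLA-B and HLA-C in this respect was not tested. B2M, the light chain shared by all class I molecules, was at 340.2, 319.8 and 269.9 CPM in GFP and 388, 436 and 286 CPM in POU5F1B libraries. Its log2 fold change was 0.24 ± 0.18 with an adjusted p of 0.640 in limma voom, and 0.30 ± 0.08 with an adjusted p of 0.0126 in replicates 1 and 2. HLA-G, a heavy chain made mainly at the placenta, had 2, 2 and 0 counts in GFP and 0, 1 and 0 in POU5F1B libraries and was below the filter, with both groups under the floor of 3 counts per library.

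Class I genes resemble each other, and reads that map to several places were left out of the counts. A comparison of 50-base windows with other HLA genes covered only part of each transcript. For HLA-E it held 626 windows, where the canonical transcript alone has 2548 bases. How much sequence these genes share, and how many reads were left out for it, was therefore not determined. Summed over the class I members, the level was 739, 700 and 527 CPM in GFP and 897, 884 and 624 CPM in POU5F1B replicates 1, 2 and 3. In both groups the replicate 3 library was the lowest.

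Over the 7 members of peptide generation the median log2 fold change was 0.30, 6 were above 0 and none passed the threshold. PSME1 and PSME2 encode the alpha and beta subunits of PA28, a ring that opens the proteasome and is induced by interferon gamma, and they are neighbours on chromosome 14 (GRCh37), at 24605372 to 24608176 on the plus strand and 24612571 to 24616779 on the minus strand. PSME1 was at 90.7, 85.3 and 88.5 CPM in GFP and 123, 128 and 103 CPM in POU5F1B replicates 1, 2 and 3. PSME2 was at 112, 114 and 113 CPM in GFP and 152, 156 and 123 CPM in POU5F1B libraries. In both genes the GFP libraries were close together and all POU5F1B libraries lay above them. The log2 fold change was 0.41 ± 0.12 for PSME1 (adjusted p = 0.303) and 0.34 ± 0.13 for PSME2 (adjusted p = 0.362) in limma voom. Without the replicate 3 libraries these were 0.50 ± 0.09 (adjusted p = 0.00121) and 0.43 ± 0.08 (adjusted p = 0.00198), below a 2-fold change.

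PSMB8, PSMB9 and PSMB10 encode the catalytic subunits that replace PSMB5, PSMB6 and PSMB7 in the immunoproteasome. PSMB8 was at 53.2, 52.3 and 28.5 CPM in GFP and 55.9, 61.5 and 43.7 CPM in POU5F1B replicates 1, 2 and 3. PSMB9 stood at 16.8, 16.0 and 9.14 CPM in GFP and 19.0, 21.7 and 13.2 CPM in POU5F1B libraries, and PSMB10 at 12.8, 11.3 and 6.44 CPM against 12.9, 9.55 and 10.2 CPM. In each of these the groups overlapped and GFP replicate 3 was the lowest of all 6 libraries. The log2 fold changes were 0.30 ± 0.27, 0.37 ± 0.31 and 0.14 ± 0.30, with adjusted p of 0.697, 0.668 and 0.884 in limma voom. In replicates 1 and 2 they were 0.14, 0.29 and -0.11, with adjusted p of 0.355, 0.177 and 0.706.

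Set against the constitutive subunit per kilobase, PSMB8 was at 0.393, 0.410 and 0.228 of PSMB5 in GFP and 0.418, 0.441 and 0.302 in POU5F1B replicates 1, 2 and 3. The ratio of PSMB9 to PSMB6 was 0.0712, 0.0677 and 0.0418 in GFP and 0.0755, 0.0865 and 0.0548 in POU5F1B libraries. That of PSMB10 to PSMB7 was 0.0608, 0.0551 and 0.0365 in GFP and 0.0589, 0.0383 and 0.0472 in POU5F1B libraries. All 3 ratios overlapped between the groups, and all 3 were lowest in GFP replicate 3. Of the 15 tested genes of the constitutive proteasome, none passed the threshold, and their median log2 fold change was 0.12 with 12 above 0. Groups did not overlap in 5 that were higher, PSMB6 and PSMB7 among them, against 10.2% of all genes. They did not overlap in 1 that was lower, against 9.24%. PSMB5, PSMB6 and PSMB7 had log2 fold changes of 0.10, 0.10 and 0.21, or 0.04, 0.08 and 0.16 in replicates 1 and 2. The pair with the smallest p in this list were PSMA3, at -0.38 ± 0.13, and PSMA1, at 0.28 ± 0.14, or -0.28 ± 0.09 and 0.42 ± 0.10 in replicates 1 and 2.

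ERAP1 and ERAP2 encode the aminopeptidases that trim peptides in the endoplasmic reticulum. ERAP1 was at 38.7, 36.4 and 52.1 CPM in GFP and 51.9, 56.1 and 40.0 CPM in POU5F1B replicates 1, 2 and 3. The replicate 3 libraries had the opposite order to replicates 1 and 2, and the log2 fold change was 0.22 ± 0.20 (adjusted p = 0.687, limma voom) over all libraries and 0.51 ± 0.11 (adjusted p = 0.00461) in replicates 1 and 2. ERAP2 was the sole member of the group below 0, at 4.55, 3.66 and 5.48 CPM in GFP and 3.30, 3.71 and 2.66 CPM in POU5F1B libraries. Its log2 fold change was -0.49 ± 0.27, with an adjusted p of 0.519 in limma voom, and -0.23 ± 0.27 (adjusted p = 0.560) in replicates 1 and 2.

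**Figure D2:**
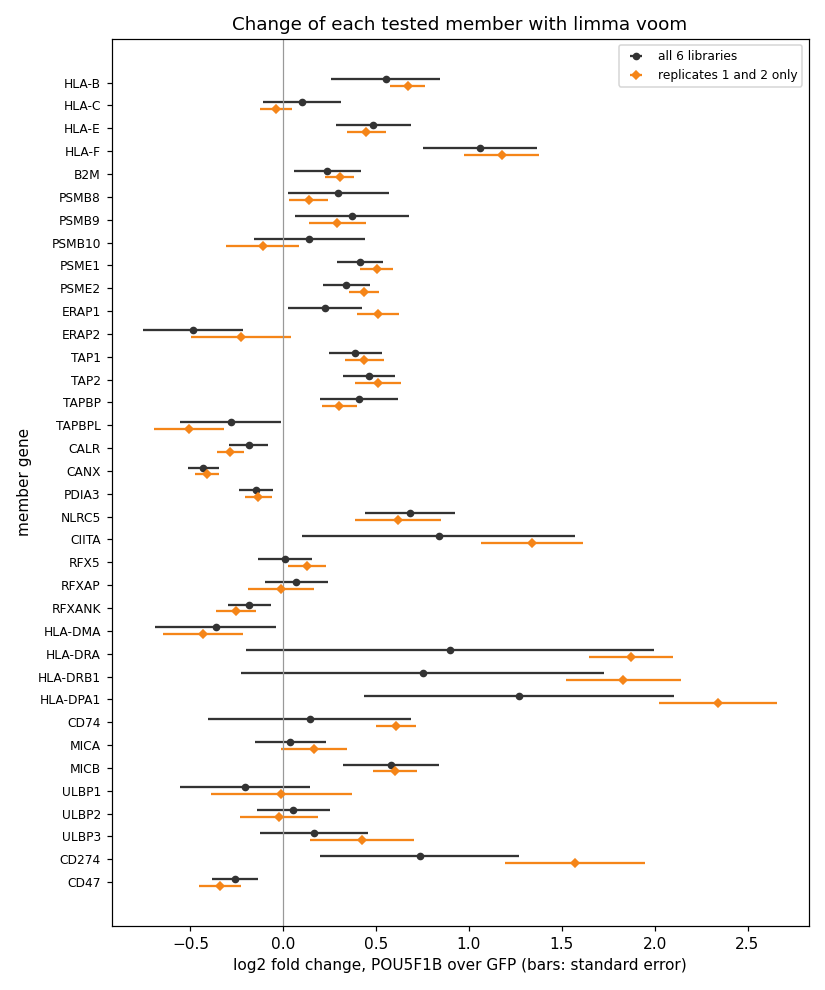
Log2 fold change of POU5F1B over GFP for each tested member in limma voom, with bars giving the standard error, over all 6 libraries (black) and over replicates 1 and 2 alone (orange). HLA-DRA, HLA-DRB1, HLA-DPA1, CIITA, CD74 and CD274 have the widest bars over all libraries and sit farther right without the replicate 3 libraries, and HLA-F lies above 1 in both fits.

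Peptide loading split within the group. Its median log2 fold change was -0.15, with 3 members above 0 (TAP1, TAP2 and TAPBP) and 4 below (TAPBPL, CALR, CANX and PDIA3), and none passed the threshold. TAP1 and TAP2 form the transporter that carries peptides into the endoplasmic reticulum. TAP1 was at 42.0, 41.1 and 37.9 CPM in GFP and 56.4, 57.1 and 45.6 CPM in POU5F1B replicates 1, 2 and 3. TAP2 was at 31.6, 38.6 and 40.4 CPM in GFP and 49.5, 51.4 and 50.5 CPM in POU5F1B libraries. Both genes lay above the GFP range in every POU5F1B library. The log2 fold changes were 0.39 ± 0.14 for TAP1 (adjusted p = 0.359) and 0.46 ± 0.14 for TAP2 (adjusted p = 0.304) in limma voom, and 0.44 ± 0.11 (adjusted p = 0.00810) and 0.51 ± 0.12 (adjusted p = 0.00802) in replicates 1 and 2.

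TAPBP encodes tapasin, which bridges the transporter and the class I heavy chain. Its level was 73.6, 74.2 and 47.3 CPM in GFP and 94.8, 88.9 and 72.2 CPM in POU5F1B replicates 1, 2 and 3. The POU5F1B replicate 3 value fell inside the GFP range, and the log2 fold change was 0.41 ± 0.21 (adjusted p = 0.496, limma voom), or 0.30 ± 0.09 (adjusted p = 0.0290) in replicates 1 and 2. TAPBPL, the tapasin-like peptide editor, was at 19.5, 14.6 and 9.92 CPM in GFP and 12.5, 11.2 and 11.2 CPM in POU5F1B libraries. Its log2 fold change was -0.28 ± 0.27 with an adjusted p of 0.709 in limma voom, or -0.51 ± 0.19 (adjusted p = 0.0616) in replicates 1 and 2, and GFP replicates 1 and 3 lay on either side of the POU5F1B libraries.

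CANX, CALR and PDIA3 encode calnexin, calreticulin and ERp57, chaperones that fold glycoproteins in general and serve class I heavy chains among them. CANX was at 1512, 1439 and 1510.1 CPM in GFP and 1089.6, 1151 and 1067 CPM in POU5F1B replicates 1, 2 and 3. Every POU5F1B library lay below every GFP library by more than the spread within either group. The log2 fold change was -0.43 ± 0.08, or 0.741-fold, with an adjusted p of 0.199 in limma voom. In replicates 1 and 2 it was -0.41 ± 0.06 (adjusted p = 0.000414) and between the replicate 3 libraries -0.50, all short of a 2-fold change.

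CALR was at 968, 872 and 789.8 CPM in GFP and 739, 783 and 784 CPM in POU5F1B libraries. PDIA3 was at 543, 495 and 557 CPM in GFP and 474, 479 and 484 CPM in POU5F1B libraries. Neither gene overlapped between the groups, although for CALR the lowest GFP library, replicate 3, lay just above the highest POU5F1B library. The log2 fold changes were -0.19 ± 0.11 (adjusted p = 0.527) and -0.15 ± 0.09 (adjusted p = 0.569) in limma voom, and -0.28 ± 0.07 (adjusted p = 0.0103) and -0.13 ± 0.07 (adjusted p = 0.194) in replicates 1 and 2. Summed over all 7 loading members, which these 3 chaperones dominate, the level was 3191, 2974 and 2992 CPM in GFP and 2516, 2622 and 2514 CPM in POU5F1B replicates 1, 2 and 3.

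Of 11 other tested chaperones of the endoplasmic reticulum, 9 were below 0 and none passed the threshold, and their median log2 fold change was -0.20. PDIA4, a protein disulfide isomerase, had the smallest p of the list, with 563, 494 and 389 CPM in GFP and 307, 307 and 368 CPM in POU5F1B replicates 1, 2 and 3, a log2 fold change of -0.55 ± 0.16 (adjusted p = 0.298, limma voom) and -0.79 ± 0.08 (adjusted p = 2.06e-05) in replicates 1 and 2. HSPA5, the chaperone BiP, followed at -0.23 ± 0.09 (adjusted p = 0.356, limma voom), or -0.28 ± 0.06 (adjusted p = 0.00618) in replicates 1 and 2.

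**Figure D3:**
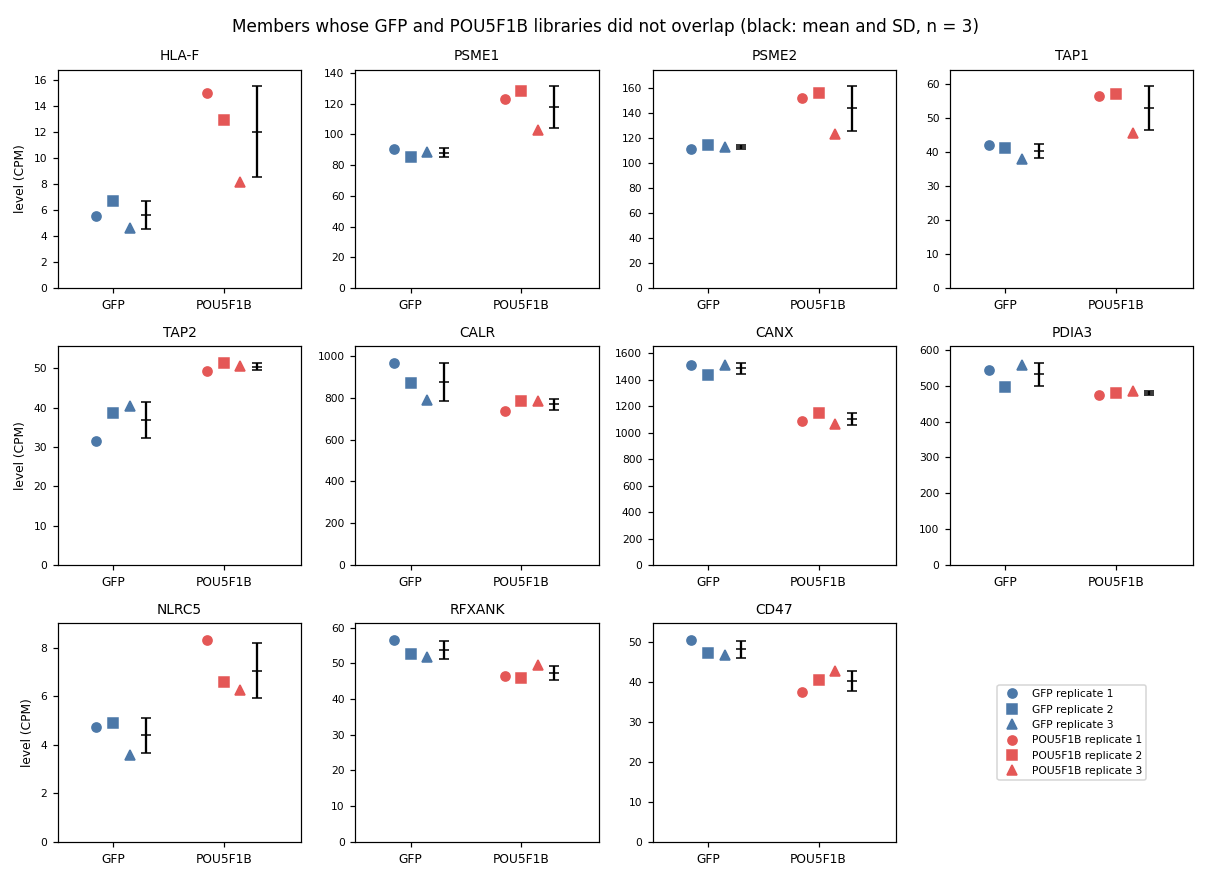
Level in CPM, from 0, of the 11 members whose GFP and POU5F1B libraries did not overlap, with the marker shape giving the replicate number and black bars the mean and SD of 3 libraries. HLA-F, PSME1, PSME2, TAP1, TAP2 and NLRC5 are higher in all POU5F1B libraries, by 1.27-fold to 2.08-fold, and CALR, CANX, PDIA3, RFXANK and CD47 are lower, at 0.741 to 0.902 of GFP, and none of the 11 passed the threshold.

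Over the 5 regulators the median log2 fold change was 0.07, and 4 were above 0. NLRC5 encodes the transactivator of class I genes, which acts at their promoters together with the RFX complex and NF-Y. It was at 4.72, 4.88 and 3.57 CPM in GFP and 8.34, 6.58 and 6.24 CPM in POU5F1B replicates 1, 2 and 3. All POU5F1B libraries were above all GFP libraries, and the log2 fold change was 0.68 ± 0.24, or 1.60-fold (adjusted p = 0.352, limma voom). Restricted to replicates 1 and 2 it was 0.62 ± 0.23 with an adjusted p of 0.0627, and between the replicate 3 libraries 0.80.

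RFX5, RFXAP and RFXANK encode the RFX complex, which binds the X box of class I and class II promoters. RFX5 was at 66.0, 59.8 and 81.5 CPM in GFP and 70.2, 67.9 and 67.9 CPM in POU5F1B replicates 1, 2 and 3. RFXAP was at 11.6, 11.4 and 11.2 CPM in GFP and 10.8, 12.4 and 13.0 CPM in POU5F1B libraries. Both overlapped between the groups, with log2 fold changes of 0.01 ± 0.14 and 0.07 ± 0.17 and adjusted p of 0.989 and 0.901 in limma voom, or 0.13 ± 0.10 and -0.01 ± 0.18 in replicates 1 and 2. RFXANK was at 56.7, 52.7 and 51.9 CPM in GFP and 46.5, 45.8 and 49.6 CPM in POU5F1B libraries, lower in all 3, with a log2 fold change of -0.18 ± 0.12 (adjusted p = 0.577, limma voom), or -0.26 ± 0.11 (adjusted p = 0.0933) in replicates 1 and 2. The 4 NF-Y and CREB genes whose products share these promoters with the RFX complex were all below 0, with a median of -0.13. None of them passed the threshold, and CREB1, at -0.51 ± 0.24, and NFYC, at -0.11 ± 0.12, had the smallest p, with -0.16 ± 0.13 and -0.11 ± 0.11 in replicates 1 and 2.

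Of the genes that carry interferon signals to these promoters, 13 were tested and none passed the threshold, while 9 were above 0 and the median was 0.14 on the log2 scale. IRF1 was at 51.1, 53.2 and 35.8 CPM in GFP and 61.9, 58.0 and 44.7 CPM in POU5F1B replicates 1, 2 and 3, a log2 fold change of 0.24 ± 0.21 (adjusted p = 0.684, limma voom), or 0.19 ± 0.10 (adjusted p = 0.195) in replicates 1 and 2. Its levels overlapped between the groups. IFNAR2, a subunit of the type I interferon receptor, had the smallest p of the list, with 21.5, 21.9 and 20.5 CPM in GFP and 33.0, 30.5 and 30.0 CPM in POU5F1B libraries. Its groups did not overlap, and the log2 fold change was 0.55 ± 0.14 (adjusted p = 0.240, limma voom), or 0.54 ± 0.13 (adjusted p = 0.00895) in replicates 1 and 2. IFNGR2, a subunit of the interferon gamma receptor, was next at 0.25 ± 0.12 (adjusted p = 0.450, limma voom), or 0.31 ± 0.10 (adjusted p = 0.0395) without the replicate 3 libraries.

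Of the 7 member groups, the class II pathway differed most between replicates 1 and 2 and the replicate 3 libraries. Its median log2 fold change was 0.75 over 5 tested members, with 4 above 0, and 1.83 in replicates 1 and 2, with the same number above 0. Between the replicate 3 libraries the median was -0.90, and all 5 were lower with POU5F1B. None passed the threshold over all libraries, while HLA-DRA, HLA-DRB1 and HLA-DPA1 passed it in replicates 1 and 2.

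HLA-DRA encodes the alpha chain of HLA-DR. It had 41, 48 and 22 counts in GFP and 157, 155 and 11 counts in POU5F1B replicates 1, 2 and 3, or 3.45, 3.66 and 1.91 CPM against 12.3, 14.4 and 0.916 CPM. POU5F1B replicates 1 and 2 lay above every GFP library and replicate 3 lay below every GFP library. The log2 fold change was 0.90 ± 1.10 (adjusted p = 0.781, limma voom) over all libraries and 1.87 ± 0.23, or 3.67-fold (adjusted p = 7.48e-05), in replicates 1 and 2. Between the replicate 3 libraries it was -1.03.

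HLA-DRB1, which pairs with HLA-DRA, had 16, 24 and 16 counts in GFP and 77, 59 and 6 counts in POU5F1B replicates 1, 2 and 3. HLA-DPA1, the alpha chain of HLA-DP, had 14, 16 and 20 counts in GFP and 80, 68 and 11 counts in POU5F1B libraries. As for HLA-DRA, POU5F1B replicates 1 and 2 lay above every GFP library and POU5F1B replicate 3 was the lowest of the 6. The log2 fold changes were 0.75 ± 0.98 (adjusted p = 0.795) and 1.27 ± 0.83 (adjusted p = 0.588) in limma voom over all libraries. In replicates 1 and 2 they were 1.83 ± 0.31 (adjusted p = 0.00084) and 2.34 ± 0.32 (adjusted p = 0.000168), the latter a 5.07-fold difference and the greatest of any member in that fit.

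CD74 was far more abundant, at 90.3, 73.7 and 54.1 CPM in GFP and 128, 121 and 31.4 CPM in POU5F1B replicates 1, 2 and 3. Its POU5F1B libraries also lay above the GFP range in replicates 1 and 2 and below it in replicate 3, with a log2 fold change of 0.14 ± 0.55 (adjusted p = 0.946, limma voom) over all libraries, 0.61 ± 0.11 (adjusted p = 0.00116) in replicates 1 and 2 and -0.79 between the replicate 3 libraries. CIITA, the transactivator on which class II transcription depends, had 32, 42 and 18 counts in GFP and 112, 69 and 17 counts in POU5F1B libraries. Here replicate 3 was the lowest library of both groups, with nearly the same count in each. The log2 fold change was 0.84 ± 0.74 (adjusted p = 0.683, limma voom) over all libraries and 1.34 ± 0.27, or 2.53-fold (adjusted p = 0.00301), in replicates 1 and 2.

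HLA-DMA encodes a chain of HLA-DM, which exchanges the invariant chain remnant for a peptide, and was the member of the class II pathway that did not follow the others. It was at 6.99, 7.39 and 4.09 CPM in GFP and 5.27, 5.47 and 3.50 CPM in POU5F1B replicates 1, 2 and 3, with a log2 fold change of -0.36 ± 0.33 (adjusted p = 0.687, limma voom), or -0.43 ± 0.22 (adjusted p = 0.156) in replicates 1 and 2. Its partner HLA-DMB had 7, 6 and 1 counts in GFP and 14, 7 and 2 counts in POU5F1B libraries, and HLA-DPB1, the beta chain of HLA-DP, had 0, 2 and 5 against 10, 8 and 0. Both were below the filter and were not tested.

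The class II chains are made mainly by professional antigen-presenting cells. Of the 9 leukocyte and antigen-presenting cell markers, only ITGAX passed the filter, and its counts were like those of HLA-DRB1 and HLA-DPA1 in GFP replicates 1 and 2 but lower than theirs in POU5F1B replicates 1 and 2. EPCAM was also higher with POU5F1B in replicates 1 and 2, by 1.87 on the log2 scale, and between the replicate 3 libraries the difference was -1.04. There GFP replicate 3 was its highest library, at 519 CPM against 252 CPM, while for the class II chains POU5F1B replicate 3 was the lowest. Of 7 tested epithelial markers, 6 were higher in replicates 1 and 2 and 3 between the replicate 3 libraries. CDH1 was at 2.33 and 0.43 and CDX2 at -0.58 and 0.16 in these comparisons. The summed level of the class II members was 104, 88.5 and 63.8 CPM in GFP and 160.3, 154 and 37.4 CPM in POU5F1B replicates 1, 2 and 3. That sum was lowest in replicate 3 of both groups, and GFP replicate 3 had 1 count of POU5F1B. Among the POU5F1B libraries, the overexpressed POU5F1B was also lower in replicate 3 than in replicates 1 and 2. POU5F1B replicate 3 stood apart from the other libraries of its group as well. The part of any of these in the class II values was not tested, and with 1 library at the lower POU5F1B level its POU5F1B level and its distance from the group cannot be told apart.

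**Figure D4:**
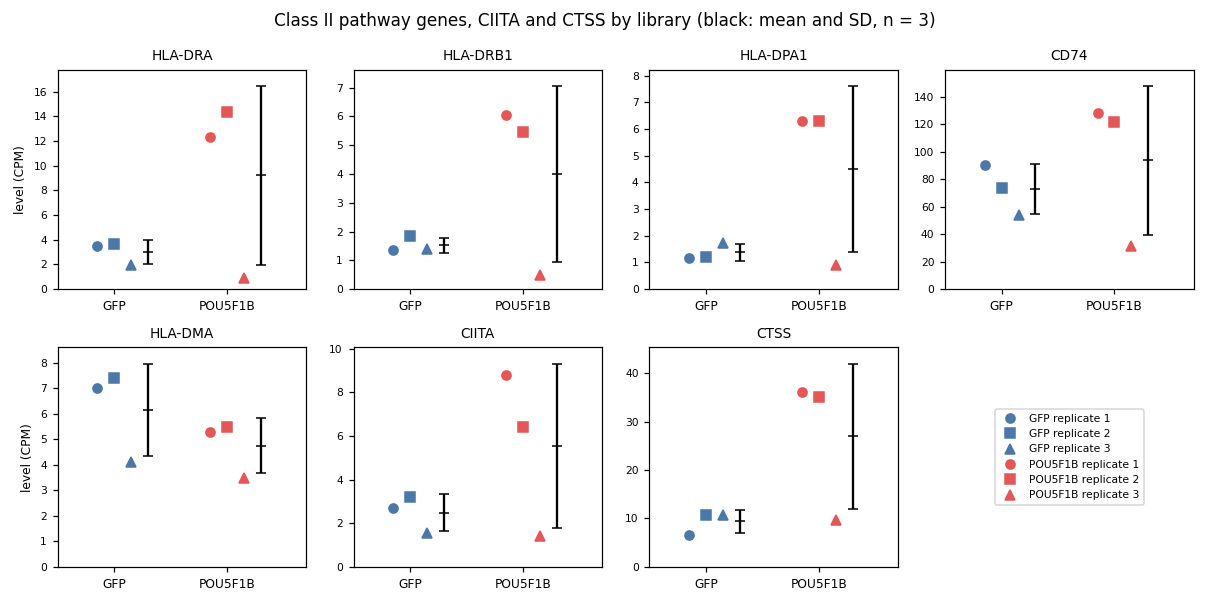
Level in CPM, from 0, of the 5 tested class II pathway members, CIITA and the endosomal protease CTSS in each library, with the marker shape giving the replicate number and black bars the mean and SD of 3 libraries. Apart from HLA-DMA, POU5F1B replicates 1 and 2 sit above all GFP libraries and POU5F1B replicate 3 sits within or below the GFP range.

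Of 5 tested genes for endosomal processing of class II cargo, none passed the threshold over all libraries, and the median log2 fold change was -0.0035, with 2 above 0 and 3 below. CTSS, the protease cathepsin S that trims the invariant chain, had the smallest p, with 79, 140 and 124 counts in GFP and 460, 378 and 116 in POU5F1B replicates 1, 2 and 3. POU5F1B replicates 1 and 2 lay above every GFP library, and replicate 3 lay inside the GFP range. Its log2 fold change was 1.32 ± 0.59 (adjusted p = 0.435, limma voom) over all libraries and 2.05 ± 0.19, or 4.14-fold (adjusted p = 1.12e-05), in replicates 1 and 2. CTSL, cathepsin L, was next at 0.33 ± 0.24 (adjusted p = 0.623, limma voom), or 0.08 ± 0.11 (adjusted p = 0.644) in replicates 1 and 2. CTSB, cathepsin B, was below 0, at -0.12 ± 0.19 (adjusted p = 0.837, limma voom), or -0.33 ± 0.07 (adjusted p = 0.00301) in replicates 1 and 2.

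NKG2D ligands are stress-induced relatives of class I molecules that mark cells for natural killer and T cells. Their median log2 fold change was 0.05 over 5 members, with 4 above 0, and none passed the threshold. MICB was at 28.6, 28.0 and 18.9 CPM in GFP and 44.4, 42.1 and 27.5 CPM in POU5F1B replicates 1, 2 and 3. POU5F1B replicates 1 and 2 lay above the GFP range while replicate 3 fell inside it, and the log2 fold change was 0.58 ± 0.26 (adjusted p = 0.436, limma voom), or 0.60 ± 0.12 (adjusted p = 0.00246) in replicates 1 and 2.

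MICA, the close relative of MICB, was at 12.5, 13.0 and 15.2 CPM in GFP and 12.8, 16.4 and 12.7 CPM in POU5F1B libraries, a log2 fold change of 0.04 ± 0.19 (adjusted p = 0.959, limma voom), or 0.17 ± 0.18 (adjusted p = 0.514) in replicates 1 and 2. ULBP1, ULBP2 and ULBP3 were at 1.52 to 2.97, 6.74 to 8.24 and 3.12 to 5.19 CPM over the 6 libraries. Their log2 fold changes were -0.21 ± 0.35, 0.05 ± 0.20 and 0.17 ± 0.29, with adjusted p of 0.851, 0.942 and 0.855 in limma voom, and -0.01 ± 0.38, -0.02 ± 0.21 and 0.42 ± 0.28 in replicates 1 and 2. The groups overlapped in all 4 of these ligands.

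Inhibitory ligands were CD274 and CD47. CD274, which encodes PD-L1, the ligand of the T cell checkpoint receptor PD-1, had 10, 12 and 31 counts in GFP and 37, 27 and 16 counts in POU5F1B replicates 1, 2 and 3. GFP replicate 3 lay among POU5F1B replicates 1 and 2, and the order was opposite in replicate 3. The log2 fold change was 0.73 ± 0.54 (adjusted p = 0.623, limma voom) over all libraries, 1.57 ± 0.38, or 2.97-fold (adjusted p = 0.00765), in replicates 1 and 2. CD47, the signal that restrains phagocytosis, was at 50.6, 47.2 and 46.6 CPM in GFP and 37.6, 40.4 and 42.8 CPM in POU5F1B libraries. It was lower in all 3 POU5F1B libraries, with a log2 fold change of -0.26 ± 0.12 (adjusted p = 0.466, limma voom), or -0.34 ± 0.11 (adjusted p = 0.0393) in replicates 1 and 2.

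Among 7 other tested immune ligands the median log2 fold change was -0.27, with 5 below 0 and none past the threshold. CD276, the immune ligand B7-H3, had the smallest p, with 71.5, 59.8 and 40.1 CPM in GFP and 37.7, 34.3 and 49.9 CPM in POU5F1B replicates 1, 2 and 3, a log2 fold change of -0.47 ± 0.25 (adjusted p = 0.513, limma voom), or -0.87 ± 0.13 (adjusted p = 0.000279) in replicates 1 and 2. The death receptor gene FAS followed at 0.46 ± 0.33 (adjusted p = 0.615, limma voom), or 0.94 ± 0.16 (adjusted p = 0.000923) in replicates 1 and 2. LGALS9 had 55, 46 and 9 counts in GFP and 19, 15 and 17 counts in POU5F1B replicates 1, 2 and 3. Its log2 fold change was -0.71 ± 0.68 (adjusted p = 0.705, limma voom). In replicates 1 and 2 it was -1.46 ± 0.34 (adjusted p = 0.00615), lower and past the threshold, as were 5.15% of all genes.

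The strand setting of the counting was not given in the sources used here, and 20 members share exon sequence with a counted gene on the opposite strand. PSMB8 shares 17.3% and TAP1 14.2% of its exonic bases with PSMB8-AS1, and HLA-F shares 15.6% with ENSG00000225864 and 12.4% with HLA-F-AS1. RFXANK shares 14.5% with BORCS8, and CIITA, a member of low counts, 10.7% with DEXI. If the counting ignored strand, reads from those stretches could not be attributed to either gene. Other overlaps are on the same strand, where no strand setting tells genes apart. PSMB10 shares 39.4% of its exonic bases with ENSG00000261884, HLA-B 30.7% with DHFRP2 and TAP2 19.5% with ENSG00000250264. All of these shares are of bases over every transcript of a GENCODE annotation, which may differ from the one used for counting. They are not shares of reads, and how far the overlaps touch the values of these members was not measured.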

How the data were processed

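PolyA RNA of SW480 cells was sequenced with a stranded mRNA kit, in 3 GFP and 3 POU5F1B libraries, and samples were assigned to groups from their titles. The authors deposited 1 table of raw read counts per library, not normalized. They mapped reads to hg19 with HISAT2 and counted uniquely mapped reads with featureCounts over genes and transposable elements. The annotation release was not given in the sources used here.

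Low counts were removed by filterByExpr (edgeR 4.0.16), library sizes were scaled by TMM, and POU5F1B was compared with GFP in all 14286 tested genes with voom of limma 3.58.1 in R 4.3.3, with Benjamini-Hochberg adjustment, as in the study's methods. The threshold was an adjusted p under 0.05 with a fold change above 2. The log2 fold changes are those fitted by voom. Levels are CPM, with SD over 3 libraries, and levels per kilobase use the Ensembl canonical transcript of a GENCODE annotation on GRCh37. The difference between the replicate 3 libraries is of voom's log2 CPM and has no test. Depth was 10767947 to 12787637 counts, and a floor of 3 counts covers counting error only. Alternatives were the edgeR quasi-likelihood test, DESeq2 1.42.0, sample quality weights, DESeq2 size factors, no filter, the replicate number as a block, replicates 1 and 2 only, and leaving out each library. Fits were tested on simulated counts.

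The members, the comparison lists, the alternatives and the use of replicates 1 and 2 were chosen with earlier results of these data known. All members are described. Of the 6 comparison lists (constitutive proteasome, interferon signalling, endoplasmic reticulum chaperones, endosomal processing, NF-Y and CREB genes, and other immune ligands), PSMB5, PSMB6, PSMB7, IRF1 and the 2 genes with the smallest voom p in each list are named, and 1 further gene of the naming rule is not reported here. Of 127 entries over all lists, 125 were found. No set test was run.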

Additional observations from a re-analysis of the deposited data

How the results depend on the processing

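Over all genes, the 0 genes past the threshold became 232 with DESeq2, 4 without the filter, 1077 with sample quality weights, 1194 in replicates 1 and 2 only, and 0 to 595 without single libraries, with 595 without GFP replicate 3 and 5 without POU5F1B replicate 3. The count of members past it stayed at 0 except with sample quality weights, with 3 (HLA-F, HLA-DPA1 and CD274), and in replicates 1 and 2 only, with 6, and it was 0 without any single library. With the replicate number as a block (replicate block), 1 gene passed and no member did. Deviations of same-numbered libraries correlated at 0.223, 0.0928 and 0.166 for numbers 1, 2 and 3, so the numbers were not taken to pair the samples.

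The median of the regulators was 0.15 with sample quality weights and 0.13 in replicates 1 and 2, and that of the inhibitory ligands was 0.62 in replicates 1 and 2. Without single libraries, medians ranged from 0.31 to 0.64 for the class I molecules, 0.12 to 0.47 for the inhibitory ligands, 0.085 to 0.45 for peptide generation, -0.17 to -0.056 for peptide loading, 0.022 to 0.15 for the regulators and 0.11 to 1.91 for the class II pathway, whose highest value came without POU5F1B replicate 3. The lowest for class I and peptide generation came without GFP replicate 3. Of 91 group medians under all alternatives, 1 changed sign, that of the NKG2D ligands without GFP replicate 1.

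Of single-gene log2 fold changes under the alternatives, 662 kept their direction and side of the threshold, 16 gained the threshold and 24 changed sign. HLA-C was -0.015 with sample quality weights and -0.040 in replicates 1 and 2, PSMB10 -0.011 and -0.11, RFXAP -0.0050 and -0.012, and ULBP2 -0.044 and -0.021. RFX5 was -0.0082 with edgeR, -0.0026 with DESeq2 and -0.00080 with the replicate block. Without single libraries, HLA-C ranged from -0.13 to 0.23, PSMB8 from -0.0026 to 0.46, PSMB10 from -0.16 to 0.33, RFX5 from -0.078 to 0.12, CD74 from -0.23 to 0.82, MICA from -0.077 to 0.11, ULBP1 from -0.49 to 0.0035 and ULBP2 from -0.0083 to 0.14. Among members that kept their sign, HLA-DRA ranged from 0.25 to 2.18, HLA-DRB1 from 0.11 to 1.91, HLA-DPA1 from 0.79 to 2.19 and CIITA from 0.30 to 1.65, each highest without POU5F1B replicate 3, while B2M ranged from 0.11 to 0.42, PSMB9 from 0.085 to 0.59 and CD274 from 0.46 to 1.23. The cause of these differences was not tested. Summing counts over further Ensembl identifiers of a symbol was not run, because each member matched 1 identifier. The low counts of HLA-DRB1, HLA-DPA1 and CD274 limit the precision of those members.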
